A study of Rattus norvegicus with 4 samples.

Results

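Cd36 and 4 further genes of fatty acid uptake and intracellular fatty acid binding, Lpl, Fabp1, Fabp3 and Fabp4, were followed in rat kidney over all 4 arrays of the series. The genes were chosen by symbol, as the probe sets that the platform annotation assigns to one of these symbols alone. Each of the 5 genes had 1 such probe set, so the set held 5 of 15866 probe sets. A further probe set is annotated to Cd36 and to Cd36l1, its neighbour in the reference gene order. It was not counted as a member and is called the shared probe set.

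The 4 groups were spontaneously hypertensive rats (SHR) exposed to nicotine before birth, SHR exposed to saline, Brown Norway rats (BN) exposed to nicotine before birth, and BN exposed to saline. All animals were males of 9 weeks, and whole kidney was the tissue. SHR is an inbred strain with inherited high blood pressure and BN an inbred strain with normal blood pressure; the labels do not give the substrain. RNA of 13 animals was pooled for SHR nicotine and of 12 animals for each other group, and each pool went on 1 array. Within a strain, nicotine therefore has no replicate, and between strains there are 2 arrays a side. No 2 arrays share a group, so the 1 residual degree of freedom holds array noise together with any strain-by-nicotine difference. The spread behind the p-values below is mostly borrowed from other probe sets of like signal, counted as 16.51 degrees of freedom for strain. These p-values say nothing of variation among animals.

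Kidney tubules draw much of their energy from fatty acids. Lipoprotein lipase, the product of Lpl, releases fatty acids from circulating triglyceride at the vessel wall. Cd36, a scavenger receptor and fatty acid translocase, helps long-chain fatty acids across the membrane of endothelium, macrophages, muscle and fat cells, and the small cytosolic Fabp proteins carry them inside the cell. In SHR lines kept outside Japan, Cd36 is known to carry a defect that arose by recombination between duplicated copies of the gene, and the gene has been studied there as a candidate for insulin resistance and raised blood pressure.

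The start regions of the members with an entry in RefSeq's promoter table, 3 of 5, are shown because they cover the member that differed most between strains (Cd36), the measured member that did not pass the strain test (Fabp3) and the only one of them with a nuclear receptor half-site (Fabp1). Each runs from 250 bases before to 50 bases after the annotated start on the plus strand of GRCr8, an assembly of a BN animal, at chr4:18246332-18246631, chr5:147935875-147936174 and chr4:104749090-104749389. Capitals mark 2 motifs searched on both strands, the half-site AGGTCA or TGACCT and the TATA box TATAAA or TTTATA.
Cd36: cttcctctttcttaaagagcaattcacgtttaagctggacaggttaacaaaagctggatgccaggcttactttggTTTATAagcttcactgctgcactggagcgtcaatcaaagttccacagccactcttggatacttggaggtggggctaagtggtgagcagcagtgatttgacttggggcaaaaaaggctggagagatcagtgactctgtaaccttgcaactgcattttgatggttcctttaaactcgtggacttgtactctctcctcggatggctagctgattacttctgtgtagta
Fabp3: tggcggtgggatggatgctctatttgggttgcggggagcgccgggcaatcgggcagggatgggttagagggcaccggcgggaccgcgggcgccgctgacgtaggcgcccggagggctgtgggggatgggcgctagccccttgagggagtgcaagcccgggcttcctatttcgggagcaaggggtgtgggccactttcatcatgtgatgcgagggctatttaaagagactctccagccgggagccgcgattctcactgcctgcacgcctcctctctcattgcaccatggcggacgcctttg
Fabp1: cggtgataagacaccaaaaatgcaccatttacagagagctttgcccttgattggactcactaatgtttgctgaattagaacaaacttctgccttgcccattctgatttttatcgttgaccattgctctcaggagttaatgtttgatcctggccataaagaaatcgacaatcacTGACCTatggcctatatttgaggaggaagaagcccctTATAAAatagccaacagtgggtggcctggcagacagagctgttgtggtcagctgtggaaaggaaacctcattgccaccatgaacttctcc
The half-site, the unit that the fatty acid sensing nuclear receptors PPAR and their partner RXR read in pairs, occurred in Fabp1 with its first base 77 bases before the start, and 16.2% of 33469 such windows hold it. A match to the TATA box began 175 bases before the start of Cd36, in the opposite-strand form TTTATA. In Fabp1 one began 40 bases before the start, as TATAAA. Either form occurs in 14.2% of windows. These matches describe the letters of the windows alone.

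Signals are MAS5 intensities on a linear, arbitrary scale that differs from probe set to probe set, so no gene's level is compared with another's. Any signal under 44.5, which is the 40th percentile over the 4 arrays, was set to that floor ahead of the log2 step, and a probe set counts as measured where the higher signal reached 89.0, 2 times the floor. By that limit 3 members were measured (Cd36, Lpl and Fabp3), Fabp4 lay between floor and limit on all 4 arrays, and Fabp1 lay below the floor on all 4. The share of probe sets at or above the floor was 58.9% to 60.7% by array. The ratio of 3' to 5' signal reflects how intact the RNA was. For beta-actin it stood at 1.34 and 1.39 in SHR nicotine and SHR saline, against 1.49 and 1.54 in BN nicotine and BN saline. For Gapdh the SHR nicotine array had the highest ratio, 1.11, and the SHR saline array the lowest, with BN nicotine and BN saline between them at 1.09 and 1.07. The strains were apart for beta-actin and overlapped for Gapdh, and the part of RNA quality in the strain differences below was not tested. Sequence differences between the strains under the probes can change a signal without a change in RNA. Their part in the strain differences was not tested either, so these are differences in signal. All 9 markers of the proximal tubule, the main epithelium of kidney cortex, were measured on some array.

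**Figure D1:**
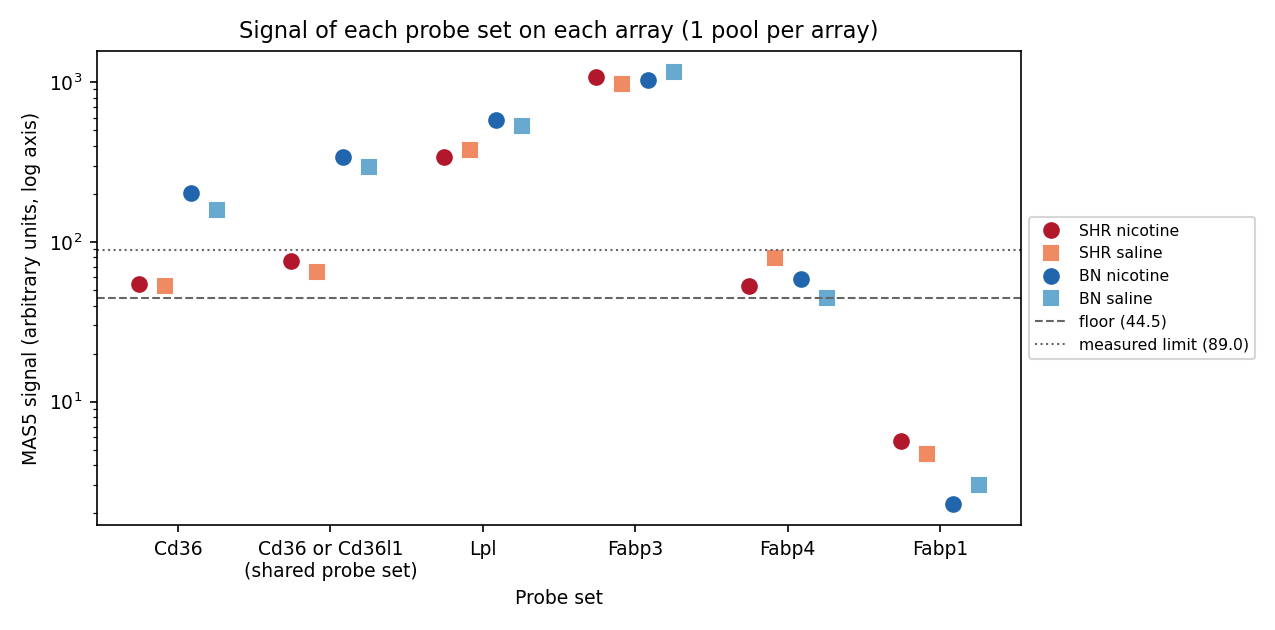
Signal of each probe set (y axis, MAS5 units, log axis) on each array, 1 point per pool, with the floor of 44.5 and the measured limit of 89.0 as lines. For Cd36 and the shared probe set both SHR arrays lie under the limit and both BN arrays above it, Lpl is separated with all 4 arrays above the limit, Fabp3 overlaps, and Fabp4 and Fabp1 never reach the limit.

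The signal of Cd36 was lower in SHR kidney. It was 54.5 in SHR nicotine and 53.2 in SHR saline, against 201.5 in BN nicotine and 159.5 in BN saline. Both SHR pools lay just above the floor and below the measured limit, both BN pools lay well above it, and the strains did not overlap. Over the treatments the log2 difference was -1.73, or 3.33-fold lower in SHR (95% interval -2.09 to -1.38, SE 0.17, limma adjusted p = 5.69e-07), at 53.9 ± 0.9 in SHR and 180.5 ± 29.7 in BN (SD, n = 2 arrays each). The difference ranked 31 by size among 7037 probe sets tested. The strain gap was seen under either treatment, at -1.89 on the log2 scale under nicotine and -1.58 under saline. With 1 pool a group these within-treatment ratios have no test, and raising the floor to the 60th percentile of all signals made them -1.06 and -0.72.

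The shared probe set read 76.1 and 65.0 in SHR nicotine and SHR saline, against 338.9 and 295.4 in BN nicotine and BN saline. Again both SHR arrays stood under the limit and the strains were apart. The log2 difference was -2.17, or 4.50-fold lower in SHR (95% interval -2.44 to -1.90, SE 0.13, limma adjusted p = 9.02e-10) and ranked 21 by size. Its ratio was 4.46-fold lower under nicotine and 4.55-fold lower under saline. RefSeq's gene order on GRCr8 places Cd36l1 and Cd36-ps1 beside Cd36, and probes for one copy may read another, so which copy gave either signal is uncertain.

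Lpl was also lower in SHR, by a smaller amount. It read 341.3 in SHR nicotine and 375.7 in SHR saline, against 580.6 in BN nicotine and 527.6 in BN saline. Neither strain's range reached the other's, and all 4 arrays were well above the limit. The log2 difference was -0.63, or 1.55-fold lower in SHR (95% interval -0.82 to -0.44, SE 0.09, limma adjusted p = 5.94e-05), at 358.5 ± 24.3 in SHR and 554.1 ± 37.5 in BN (SD, n = 2 arrays each), and ranked 373 by size. Its strain ratio was 1.70-fold lower under nicotine and 1.40-fold lower under saline.

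Fabp3, the heart-type carrier that binds fatty acids in cells that burn them, was well above the limit in every pool and did not pass the strain test. Its signals were 1077.5 in SHR nicotine and 967.3 in SHR saline, against 1033.2 in BN nicotine and 1151.0 in BN saline. The strain ranges overlapped. The fitted difference was -0.10 on the log2 scale (95% interval -0.26 to 0.07, adjusted p = 0.446 with limma), an interval that reaches from 1.20-fold lower to 1.05-fold higher in SHR, which does not hold a change of the size seen for Cd36 but does hold small ones.

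Fabp4, the adipocyte and endothelial carrier, gave 53.2 and 79.4 in SHR nicotine and SHR saline, against 58.5 and 44.6 in BN nicotine and BN saline. The SHR saline pool was the highest and the strains overlapped, but no pool reached the limit and Fabp4 was not tested. Fabp1, the liver-type carrier, stayed between 2.3 and 5.7 on all 4 arrays, far under the floor, where values have no order. A difference in Fabp1 was not detectable with this probe set.

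Of the 3 members tested for strain, 2 passed and both were lower in SHR, where 18.1% of the 7037 probe sets passed in either direction and 9.42% passed as lower. Both SHR arrays lay below both BN arrays for 28.9% of tested probe sets, so separation of the strains by itself is common. At least 1.5-fold lower were Cd36 and Lpl under nicotine, where 4.24% of measured probe sets were, and of the 3 only Cd36 under saline, where 3.95% were.

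**Figure D2:**
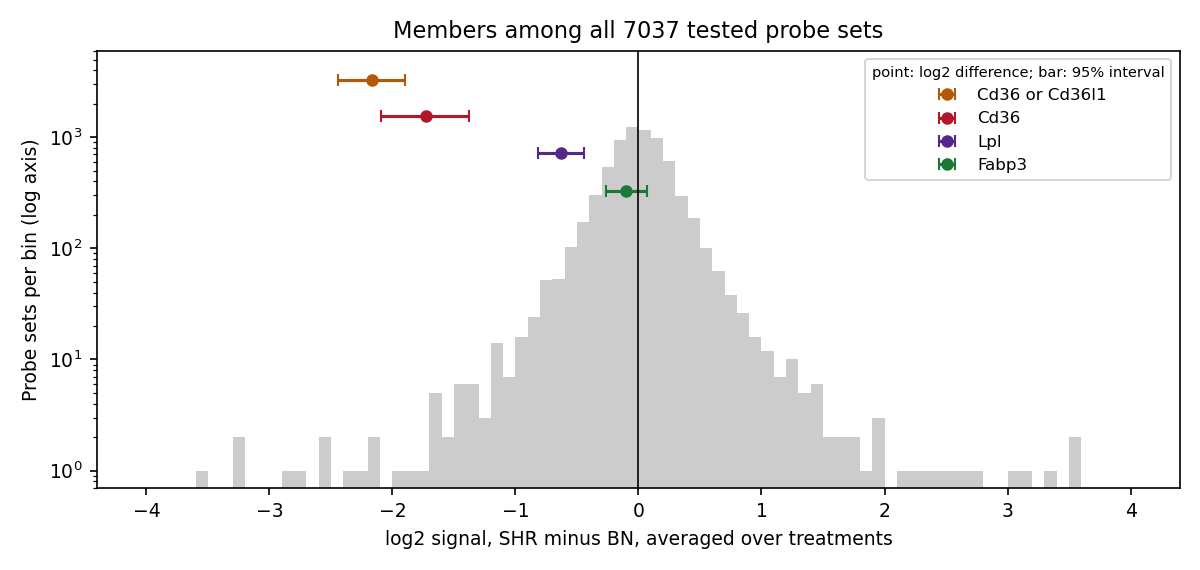
Log2 signal of SHR minus BN averaged over treatments (x axis) for all 7037 tested probe sets as a histogram of probe sets per bin (y axis, log axis), with the members and the shared probe set as points whose bars are 95% intervals and whose height has no meaning. Cd36 at -1.73 and the shared probe set at -2.17 lie in the lower tail, Lpl at -0.63 on its shoulder, and Fabp3 at -0.10 in the centre.

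Prenatal nicotine gave no called difference in any member. For Cd36 the nicotine pool was at 201.5 against 159.5 in the saline pool of BN, 1.26-fold higher, and at 54.5 against 53.2 in SHR, where both lay under the limit. In BN, 8.1% of measured probe sets had a nicotine ratio at least as large as that of Cd36. The shared probe set was 1.15-fold higher under nicotine in BN and 1.17-fold higher in SHR, again under the limit in SHR.

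Lpl and Fabp3 had small nicotine ratios of opposite sign in the strains. The Lpl log2 ratio was -0.14 in SHR and 0.14 in BN. That of Fabp3 was 0.16 in SHR and -0.16 in BN. The SD of the log2 nicotine ratio over all measured probe sets was 0.21 in SHR and 0.20 in BN, and these ratios, from 0.14 to 0.16 in size, were smaller. None of the measured members reached 1.5-fold in either strain, where 1.98% of measured probe sets did in SHR and 1.63% in BN.

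Averaged over strains, nicotine minus saline was 0.19 on the log2 scale for Cd36 (95% interval -0.17 to 0.54, adjusted p = 0.998 with limma) and 0.21 for the shared probe set (95% interval -0.06 to 0.49). For Lpl and Fabp3 the average was 0.00 to 2 decimals, with 95% intervals of -0.19 to 0.19 and -0.17 to 0.17, since the opposite ratios of the strains cancelled. With limma, 0 of 6924 probe sets passed for nicotine (0%). An unadjusted p under 0.05 was found for 376, close to the number that this threshold passes with no nicotine effect. All 4 comparisons share arrays: the BN nicotine pool, for instance, enters the strain ratio under nicotine and the nicotine ratio in BN.

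**Figure D3:**
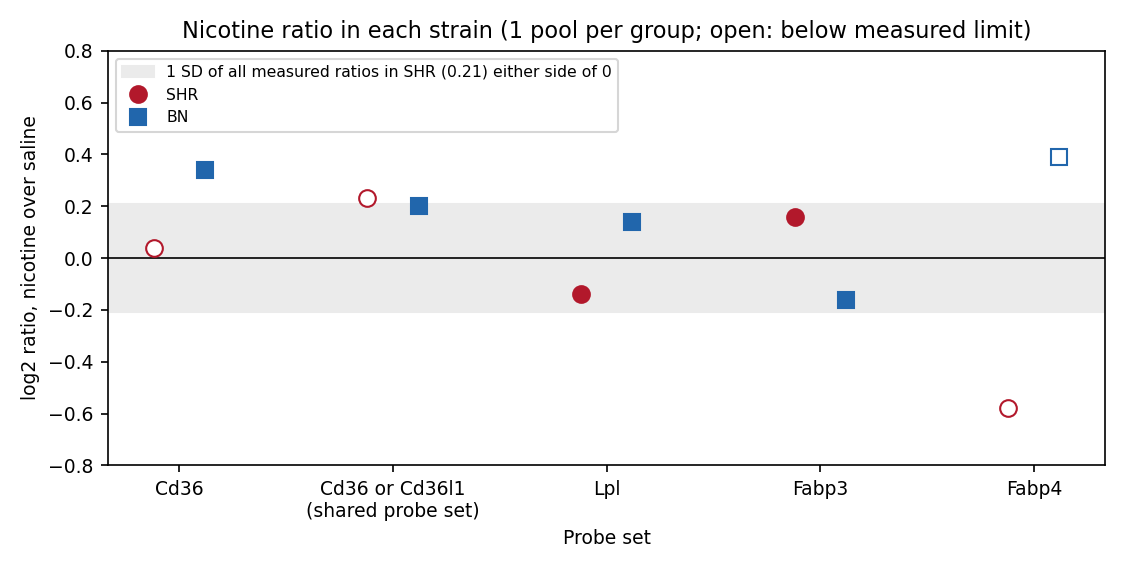
Log2 ratio of nicotine over saline (y axis) for each probe set in SHR (circles) and BN (squares), 1 pool per group, with open symbols below the measured limit and a grey band of 1 SD of all measured ratios in SHR (0.21). Cd36 in BN at 0.34 lies outside the band, Lpl and Fabp3 lie inside it on opposite sides of 0, and Fabp4, never above the limit, is furthest apart.

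The wider pathway was described with 8 lists of 95 genes in all, of which 79 had a probe set of their own and 44 were measured and tested. Each gene is given by its brightest probe set. Of the 44, 6 were higher and 10 lower in SHR, where 8.67% and 9.42% of all tested probe sets were, and the median log2 difference was -0.08 against 0.00 over all tested probe sets. For nicotine 0 of 43 genes passed.

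Among other binding proteins of the Fabp family, 1 of 10 genes with a probe set was measured. This was Fabp5, the epidermal-type carrier also found in endothelium and macrophages, at 193.0 and 227.4 in SHR nicotine and SHR saline, against 540.5 and 544.2 in BN nicotine and BN saline. The strains were far apart, with Fabp5 2.59-fold lower in SHR (log2 difference -1.37 with SE 0.10, limma adjusted p = 8.5e-09). Fabp2, Fabp6, Fabp7, Fabp9 and Fabp12 never reached the limit.

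Of 10 tested genes of fatty acid transport and activation, 3 were lower in SHR and 0 higher, with a median of -0.16. Acsl1, which joins long-chain fatty acids to coenzyme A, was 1.41-fold lower (adjusted p = 0.000109 with limma), and its other probe set differed by -0.65 on the log2 scale. Slc27a2, a transport protein and very-long-chain acyl-CoA synthetase of proximal tubule and liver, read 2700.5 and 2603.3 in SHR nicotine and SHR saline, against 3160.4 and 3334.6 in BN nicotine and BN saline, and was 1.22-fold lower, a call kept in 9 of 13 alternatives. Dbi, which binds acyl-CoA in the cytosol, was 1.18-fold lower, a call that held in 3 of 13 alternatives.

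Of 4 tested partners of lipoprotein lipase, 1 passed. Angptl4, a secreted inhibitor of the lipase, read 211.7 and 196.0 in SHR nicotine and SHR saline, against 162.7 and 132.0 in BN nicotine and BN saline. It was 1.39-fold higher in SHR (adjusted p = 0.0109 with limma), opposite in direction to Lpl itself, and the call was lost whenever 1 array was left out (adjusted p up to 0.229). Gpihbp1, which anchors the lipase on capillaries, did not reach the limit.

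Of 3 tested PPAR regulators, the nuclear receptor gene Ppard was 1.44-fold higher in SHR (adjusted p = 0.0132 with limma), a call that held in 3 of 12 alternatives. The other probe set of Ppard lay under the floor on all arrays. Ppara, Pparg and Rxra did not reach the limit. Among 10 tested PPAR targets 3 were lower and 1, Angptl4 again, higher, with a median of -0.13. Vnn1, a pantetheinase, was 1.63-fold lower, the peroxisomal enzyme gene Ehhadh 1.40-fold lower and the fatty acid hydroxylase gene Cyp4a1 1.24-fold lower. Of 13 alternatives the call was kept in 13 for Vnn1, 10 for Ehhadh and 9 for Cyp4a1. Acadm, Cpt1a and Plin2 did not pass, at -0.03, -0.13 and 0.05.

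Receptors of the tubule and vessel wall were divided, with 2 of 5 higher and 2 lower in SHR. Vldlr, which takes up lipoprotein remnants alongside Lpl, was 1.64-fold lower, at 56.8 and 70.9 in SHR nicotine and SHR saline against 102.6 and 106.2 in BN nicotine and BN saline, and its call was kept in 8 of 11 alternatives. Another Vldlr probe set, not tested, overlapped between strains, at 44.2 and 60.2 in SHR nicotine and SHR saline against 55.5 and 102.2 in BN nicotine and BN saline. A further one, also not tested, read 26.2 and 36.0 in SHR nicotine and SHR saline against 78.9 and 58.5 in BN nicotine and BN saline. Cubn, the cubilin of the proximal tubule brush border, was 1.48-fold lower. Its partners Lrp2 (megalin) and Amn were 1.23-fold and 1.18-fold higher. The Lrp2 call was kept in 10 of 13 alternatives and the Amn call in 3 of 13, while another probe set of Amn gave 0.42 on the log2 scale (adjusted p = 0.00125 with limma). The Cd36 relatives Scarb1 and Scarb2 stayed under the limit on all arrays.

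In the droplet list 1 of 8 tested genes was higher and 1 lower. G0s2, an inhibitor of triglyceride breakdown, read 806.4 and 788.6 in SHR nicotine and SHR saline, against 541.4 and 478.1 in BN nicotine and BN saline, and was 1.57-fold higher (adjusted p = 8.14e-06 with limma). Mgll, the monoglyceride lipase, was 1.24-fold lower, a call kept in 7 of 13 alternatives. Its other tested probe sets gave -0.35 (adjusted p = 0.00384 with limma) and 0.07 (adjusted p = 0.503 with limma), so 1 was lower too and 1 did not pass. In the carnitine shuttle 1 of 6 passed: Slc22a5, the carnitine carrier of the cell membrane, was 1.51-fold higher in SHR (adjusted p = 1.72e-05 with limma).

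**Figure D4:**
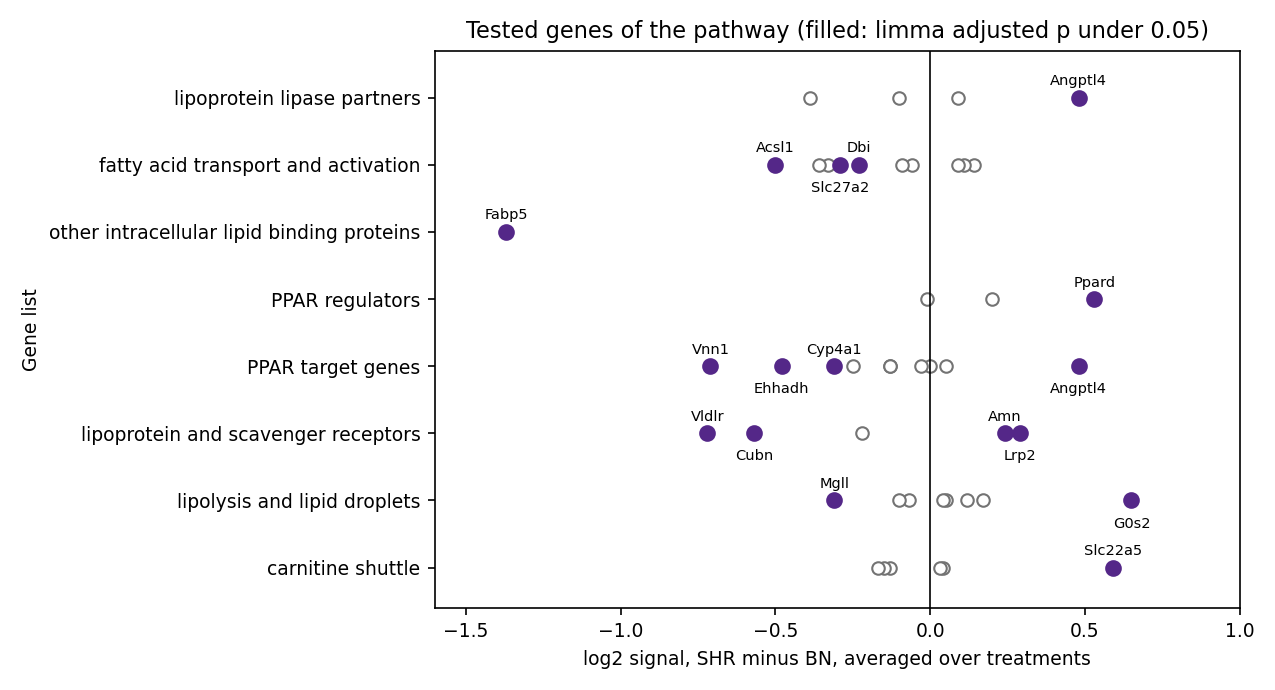
Log2 signal of SHR minus BN averaged over treatments (x axis) for each tested gene of the 8 lists (y axis), filled and named where the limma adjusted p is under 0.05. Fabp5 at -1.37 lies furthest from 0. The filled genes on the higher side are G0s2, Slc22a5, Ppard, Angptl4, Lrp2 and Amn, and Angptl4 stands in 2 lists.

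Beside Cd36 on the chromosome, the 2 genes measured by a probe set of their own did not pass the strain test. Of the 5 named protein-coding genes on either side, 4 had a probe set of their own and 2 were measured. Gnai1, a G protein subunit, differed by 0.25 (adjusted p = 0.187 with limma) and Sema3c, a semaphorin, by 0.13 (adjusted p = 0.6 with limma). The part of the chromosome region in the difference of Cd36 was not tested.

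Likeness of pattern was measured as the distance between log2 profiles over the 4 arrays, each centred on its own mean, among 6402 measured probe sets of other genes. The 3 nearest to Cd36 were Vwf, the von Willebrand factor of endothelium, Akr1c1, an aldo-keto reductase, and Endog, a mitochondrial nuclease. Akr1c1, above the limit on all 4 arrays, lay at a distance of 0.23. Vwf and Endog were below the floor in both SHR pools (42.7 and 40.8 for Vwf, 18.9 and 30.5 for Endog), so the floor sets their distances and these have no order. With the floor at the 20th percentile the strain difference of Endog was -2.55, against -1.66 as reported and -1.73 for Cd36 at either floor. The shared probe set lay at 0.47 from Cd36. Nearest to Lpl were Mertk, Map3k12 and Syne4, at 0.06 to 0.07, and nearest to Fabp3 were Morn4, Sh3tc2 and Hmga1, at 0.02 to 0.03. Within 0.25 lay 2 candidates for Cd36 (Akr1c1 and, by the floor, Vwf), 182 for Lpl and 2233 for Fabp3, so the nearest genes to Lpl and Fabp3 are a few of many.

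Cell types that carry the members were checked by their markers, because in whole kidney fewer cells of a type and less RNA per cell cannot be told apart. A summed signal is weighted towards the brightest probe sets of its list, so it is not a measure of cell number. Of 8 macrophage markers with a probe set 4 were measured, with a summed signal of 2314 and 2043 in SHR nicotine and SHR saline, against 1476 and 1266 in BN nicotine and BN saline. Most of that sum is the 1 probe set of Lyz2, at 1742.4 and 1507.3 in SHR nicotine and SHR saline, against 1044.3 and 869.2 in BN nicotine and BN saline. Lyz2, Fcer1g and C1qa were higher in SHR, and Csf1r did not pass, at 0.06 on the log2 scale (adjusted p = 0.858 with limma). Cd68, Itgam, Ptprc and C1qb did not reach the limit. Of 9 endothelial markers 7 were measured, summing to 1940 and 1847 in SHR nicotine and SHR saline, against 1815 and 1779 in BN nicotine and BN saline. Kdr and Esam were higher in SHR, by 1.25-fold and 1.35-fold, and Vwf was lower, with a fitted log2 difference of -1.58 that depends on the floor in its SHR pools (limma adjusted p = 7.88e-06). Pecam1, Tie1, Emcn and Plvap did not pass, at -0.19, 0.10, 0.12 and 0.02.

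Of 6 adipocyte markers with a probe set, only Thrsp was measured, at 134.7 and 137.1 in SHR nicotine and SHR saline against 134.6 and 102.0 in BN nicotine and BN saline. Lep, Plin1, Cfd, Lipe and Ucp1 stayed under the limit on all arrays, which does not show that they were absent. None of the 6 striated muscle markers reached the limit. The 1 measured liver marker, Apoh, was 1.49-fold higher in SHR, while Alb, Apoa1, Fgb and Ttr stayed under it. Of the 9 proximal tubule markers, 4 were higher in SHR (Slc34a1 by 1.28-fold, Slc5a2 by 1.30-fold, and Slc22a6 and Lrp2 by 1.23-fold each) and 1, Cubn, was lower, with a summed signal of 21717 and 21889 in SHR nicotine and SHR saline, against 19603 and 20362 in BN nicotine and BN saline. Podxl, a podocyte marker, was 1.47-fold lower and Synpo did not pass, at -0.10. Of 8 measured distal markers 4 were lower and 2 higher. Among all tested probe sets, for comparison with these marker counts, 9.42% were lower and 8.67% higher in SHR. The part of these cell types in the differences of Cd36, Lpl and Fabp5 was not tested.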

How the data were processed

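Total RNA of whole kidney was extracted with Trizol and pooled by group, and each of 4 pools was hybridised to 1 Affymetrix array, per the labels and the series' design text. The deposited values are signal intensity on a linear scale, which the authors computed with MAS5, as the submitters' processing notes record without a version or settings. Every array had a 2% trimmed mean of 150.0, which shows a common scaling before deposit, and no further scaling was done. With 4 arrays, their number limits the precision.

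Of 15923 probe sets, 57 controls were left out. Of the rest, 12783 had 1 gene symbol, 312 several and 2771 none; 12748 of those with 1 symbol matched a RefSeq gene. Strain and nicotine averages came from limma 3.58.1 (R 4.3.3), fitted to the floored log2 signals of all 4 arrays with strain and treatment as additive terms and 1 residual degree of freedom. Variances were moderated by eBayes along the intensity trend, and p-values were adjusted by Benjamini-Hochberg, with a threshold of 0.05, over all probe sets whose higher group mean reached 89.0. Any nicotine response that differs between strains falls into the residual. The step was tested on simulated arrays that held independent noise, with a spread taken from these arrays, and no such response. That test therefore does not bear on such a response. Nor can it show that the p-values hold for pools without replicates. Single-pool ratios have no test; called there means at least 1.5-fold.

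Members and lists were chosen with earlier results of these data known. Named were all members, of each list at most the 4 genes with the largest strain difference past the threshold, the 3 genes nearest in pattern to each measured member, and the measured genes among the 5 on either side of Cd36. Other genes named with values, the markers among them, were chosen after their values were seen. Alternatives changed the floor, the normalization, the filter, the trend, the unit, the covariate and the arrays.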

Additional observations from a re-analysis of the deposited data

Results flagged for a closer look

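The nicotine ratios of 3 members ran in opposite directions in SHR and in BN, 1 pool per group. For Lpl the log2 ratio was -0.14 in SHR and 0.14 in BN, a difference of -0.28. For Fabp3 it was 0.16 in SHR and -0.16 in BN, a difference of 0.31. For Fabp4, which never reached the measured limit, it was -0.58 in SHR and 0.39 in BN, a difference of -0.97. None of these differences could be tested, since the model with an interaction leaves no residual. Of 7409 probe sets measured on some array, 50.8% had opposite directions in the strains, and differences at least as large as those of Lpl and Fabp3 were found for 27.4% and 22.8%.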

How the results depend on the processing

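The strain call of Cd36 was kept in all 12 alternatives that tested it and that of Lpl in all 13, with log2 differences of -1.90 to -1.57 and -0.70 to -0.56 and adjusted p up to 0.00959 and 0.0434 with limma. With the floor at the 60th percentile Cd36 was below the limit and not tested, and its untested ratios shrank to -1.06 under nicotine and -0.72 under saline, as the higher floor raised the SHR values. The shared probe set passed in all 11 alternatives that tested it, and Fabp3 in 0 of 13. The count of probe sets past the threshold for strain, 1273 as reported, was 745 after quantile normalization, 830 after cyclic loess, 612 without the intensity trend and 661 genes as means over probe sets. With strain alone in the model it was 1041 on all 4 arrays, and in such fits it was 609 without SHR nicotine, 603 without SHR saline, 373 without BN nicotine and 394 without BN saline, where the fits assume the lone array of a strain varies like the others. For nicotine the count of 0 became 1 with the floor at the 20th percentile and 12 at the 60th and no member passed in any alternative. Leaving out 1 array with treatment alone in the model mixes strain into the nicotine difference, which then ran from -0.76 to 1.13 for Cd36 and from -0.88 to 1.30 for the shared probe set (without SHR saline -0.61 and -0.88, without BN nicotine -0.76 and -0.87). Of 16 pathway genes called for strain, 6 stayed past the threshold in every alternative that tested them (Acsl1, Fabp5, Vnn1, Cubn, G0s2 and Slc22a5) and none changed direction. Amn and Dbi held in 3 of 13, Mgll in 7, Slc27a2, Cyp4a1 and Angptl4 in 9, and Ehhadh and Lrp2 in 10; Vldlr held in 8 of 11. The differences of Sh3tc2 (-0.16 to 0.01) and Hmga1 (-0.15 to 0.01), never called, changed sign when SHR saline was left out, and for Hmga1 also without BN saline, to 0.01 each time. The reported fit already compares the strains within the 2 treatments, with treatment as a term. The labels give no replicate numbers that could pair arrays further.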
